A study of Drosophila melanogaster with 2 samples.

Results

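The cuticle protein genes of Drosophila melanogaster studied here are the 122 protein-coding genes whose symbol starts with Cpr and a digit, Ccp84, Lcp, Edg, Acp65, Pcp or Twdl, out of 13968 protein-coding genes on the chromosome arms. They comprised 70 Cpr, 25 Twdl, 15 Lcp, 7 Ccp84 and 3 Edg genes, with Acp65Aa and Pcp as the lone members of their families. The binding of the transcription factor Eip93F was measured at these genes in whole prepupae of mixed sex by chromatin immunoprecipitation and sequencing. The single group of animals came from a MiMIC strain in which an eGFP exon placed in an intron of Eip93F makes an Eip93F-GFP fusion, and all animals carried this allele. An antibody to GFP pulled down the fusion protein from chromatin sonicated to 200 to 800 bp. The age of the prepupae within that stage is not given, and because whole animals were used, epidermis and all other tissues contributed together. There were 2 biological replicates, nothing in the labels says that they came from separate crosses, and with 1 group no comparison between conditions could be made.

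Insect cuticle is a composite of chitin fibres and protein that the epidermis secretes anew at each molt, and larval, pupal and adult cuticles draw on different sets of cuticle protein genes. Most Cpr, Lcp, Ccp84, Edg, Acp65 and Pcp proteins carry the Rebers and Riddiford sequence, which binds chitin, while the Tweedle (Twdl) proteins form a separate family in which altered members change the shape of the body. Many of these genes are induced in short pulses that follow the rise and fall of the steroid hormone ecdysone. Eip93F encodes E93, an ecdysone-induced factor with a role in the passage from pupal to adult development.

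The deposited lists give peaks with a summit and a signal, the authors' own score for each peak, which can be compared only within a list. The reproducible set held 3401 peaks that passed the authors' test of the irreproducible discovery rate (IDR), with signals from 89.8 to 1529. The pooled list, called on both replicates together, and the list of each replicate each held 30000 entries with background included, so a site without an entry lay below that limit and was not shown to be unbound. An entry was said to be in reach of a gene when its summit lay in the gene or within 1000 bp of it. Ranks run from 1 for the highest signal. No read counts came with these lists, and the depth of the libraries is unknown.

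Few cuticle protein genes had a reproducible peak. A summit of the reproducible set was in reach of 3 of the 122 genes, or 2.46%, while the share of all protein-coding genes was 19.9%. The genes with one were Cpr51A, Cpr72Ea and Cpr72Eb, all of the Cpr family, and the last pair shared a single summit, so that 2 distinct summits served all 3 genes. No Twdl, Lcp, Ccp84 or Edg gene had one, nor had Acp65Aa or Pcp. The 3401 leading entries of replicate 1 taken alone reached 0 members, and those of replicate 2 alone reached 4, the same 3 genes and Cpr73D. The count was thus low in each replicate, and the genes named here were among the leading entries of replicate 2 and not of replicate 1.

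Cuticle protein genes are short, and short genes offer less sequence for a summit to fall in. The median span from start to end was 954.5 bp, with a range from 413 bp for Lcp65Ab1 to 18590 bp for Cpr73D, and the median of all protein-coding genes was 2164.5 bp. Among genes under 1000 bp, 1 of 64 members and 7.07% of all genes had a reproducible summit in reach. From 1000 to under 2000 bp the count was 1 of 39, with 13.6% for all genes. From 2000 to under 5000 bp it was 1 of 12, with 21.2% for all genes, and at 5000 bp and over it was 0 of 7, with 35.1%. The members were thus below the share of all genes in each of the 4 span classes. At the share of all genes in their own span class, 14.8 members (12.2%) would have had a summit.

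**Figure D1:**
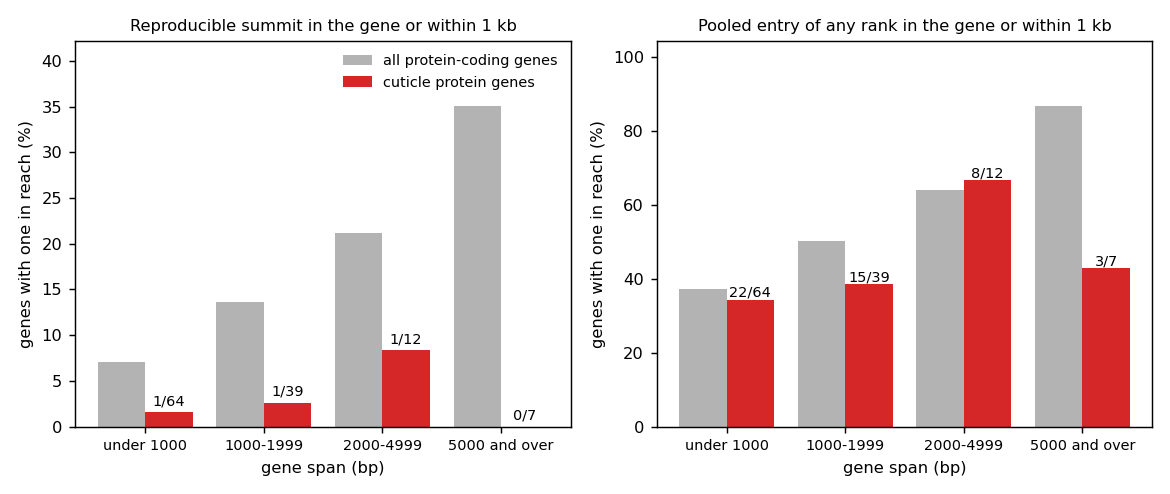
Share of genes (%) with a reproducible summit (left) or a pooled entry of any rank (right) in the gene or within 1 kb, by gene span in bp, for all protein-coding genes (grey bars) and cuticle protein genes (red bars, with counts printed above them). The red bars on the left are lower in every class, while on the right 22 of 64 members under 1000 bp stand beside 37.2% of all genes and 8 of 12 members of 2000 to under 5000 bp beside 64.0%, with 15 of 39 beside 50.2% and 3 of 7 beside 86.8% in the other classes.

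The start sites of cuticle protein genes also lay far from reproducible summits. The median distance from the transcription start site (TSS) to the nearest reproducible summit was 31343 bp for the members and 13438 bp for all genes, and it was 21945 bp for all genes under 1000 bp. Only the start of Cpr72Eb, 0.820% of the members, was within 1000 bp of a summit, against 13.4% of all genes. More than 20000 bp separated the start from the nearest summit for 88 members (72.1%) and for 39.9% of all genes. The median was 24621 bp for the Cpr family, 35093 bp for the Twdl family, 36079 bp for the Lcp family and 70501 bp for the Ccp84 family. These distances are not independent across genes, since neighbours in a cluster share the same nearest summit.

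**Figure D2:**
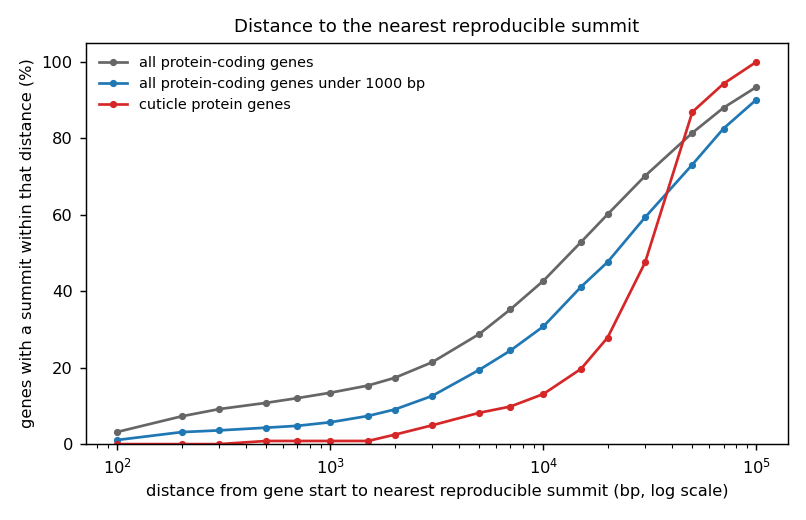
Cumulative share of genes (%) whose start lies within a given distance (bp, log scale) of the nearest reproducible summit, for all protein-coding genes (grey), all protein-coding genes under 1000 bp (blue) and the cuticle protein genes (red). The red curve stays at 0.820% at 1000 bp and crosses the others beyond 30000 bp, and no member start was farther than 87863 bp from a summit.

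Cpr51A, on the right arm of chromosome 2, had the reproducible peak with the higher signal of the pair. This peak, at chr2R:14513390-14513799 on dm6, ranked 2816 in the pooled list with a signal of 100.2, and the summit ranked 4399 in replicate 1 and 2303 in replicate 2. It lay in an intron of Cpr51A, 1616 bp downstream of the start, but the nearest protein-coding TSS was that of the overlapping gene CG30197, 435 bp away. Cpr51A had 4 further pooled entries in reach, at ranks 4795, 4896, 11081 and 23992. The entry of rank 4795 lay 147 bp inside the gene and that of rank 11081 lay 59 bp upstream of it, and both were matched to the same entry of replicate 2, at rank 4155. Cpr51A was the only member with more than 1 entry among the leading 5000 of the pooled list.

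The second reproducible peak lay between Cpr72Ea and Cpr72Eb, neighbouring genes on the left arm of chromosome 3 that are read in the same direction. It spanned chr3L:16364213-16364622 on dm6, in intergenic sequence, with its summit 481 bp upstream of the start of Cpr72Eb. It ranked 2837 in the pooled list with a signal of 99.8, 5074 in replicate 1 and 2799 in replicate 2. Both peaks stood in the lower part of the reproducible set, and neither was in the 1700 peaks of that set with the highest signal. The third gene of this cluster, Cpr72Ec, had only a pooled entry at rank 20560.

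Sequence at the summits is shown for the reproducible peak at Cpr72Eb, the strongest other entry, at Cpr62Ba, and the strongest entries of the Twdl and Edg families, at TwdlT and Edg78E, as the 101 bp centred on the summit in the RefSeq genome of the same assembly as dm6, forward strand, 5′ to 3′. Capitals mark 4 preset words on either strand. These are AGATAAG and the related TGATAAG, both of the kind that GATA factors bind, the word AAGGTCA of the kind that FTZ-F1 binds, and the word GAGAG of GAGA sequences. The entry at Cpr72Eb covers chr3L:16364368-16364468 and that at Cpr62Ba covers chr3L:1829694-1829794. The entry at TwdlT covers chr3R:27048893-27048993 and that at Edg78E covers chr3L:21297992-21298092. None of these windows overlaps an annotated untranslated exon. The sequence at Cpr51A is not shown here.
Cpr72Eb: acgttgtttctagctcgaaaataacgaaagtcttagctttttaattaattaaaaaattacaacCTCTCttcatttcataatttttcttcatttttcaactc
Cpr62Ba: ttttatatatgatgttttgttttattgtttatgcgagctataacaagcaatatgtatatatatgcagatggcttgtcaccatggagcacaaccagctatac
TwdlT: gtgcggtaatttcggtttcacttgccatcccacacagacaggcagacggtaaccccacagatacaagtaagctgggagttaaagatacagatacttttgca
Edg78E: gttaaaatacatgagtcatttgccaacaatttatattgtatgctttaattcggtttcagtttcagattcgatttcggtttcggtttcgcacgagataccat
The Cpr72Eb window held GAGAG as its reverse complement, while the windows of Cpr62Ba, TwdlT and Edg78E held none of the 4 words. Over the 67 pooled entries in reach of members, 5 (7.46%) held AGATAAG or TGATAAG within these 101 bp, and 4.70% of all 30000 pooled entries did. AAGGTCA was in 2 (2.99%) of the member entries and in 0.753% of all entries, and GAGAG was in 8 (11.9%) and in 11.7%. A matching word is a description of the sequence and does not show a site.

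Weaker entries were looked for in the pooled list. A pooled entry of any rank was in reach of 48 members (39.3%), while the share of all genes was 60.7%, and at the share of all genes in their span class 57.1 members (46.8%) would have had one. The gap to all genes was wider up to rank 10000 than past it, and the members were below all genes in each band. These shares by rank were not matched for span. After the reproducible set and up to rank 10000, 5 members (4.10%) had an entry, with 29.2% for all genes. Past rank 10000 and up to 20000 the count was 27 (22.1%), with 35.4%, and past rank 20000 it was again 27 (22.1%), with 33.5%. Of the 67 pooled entries in reach of members, 11 ranked up to 10000. A further 29 ranked past 10000 and up to 20000, and 27 ranked past 20000. Each of these bands holds 10000 entries of the whole list, so most of that list, which includes background, also lies past rank 10000. Entries at cuticle protein genes were thus fewer up to rank 10000 than in either later band.

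In the separate replicates, an entry of any rank was in reach of 40 members in replicate 1, where the share of all genes was 63.0%, and of 49 members in replicate 2, where it was 66.2%. Both replicates had an entry in reach of 27 members (22.1%), though not always at the same site. The share of all genes was 54.4%, and 47.0 members (38.5%) would have had entries in both at the share of their span class. No entry in the pooled list or in either replicate was in reach of 59 members. The share of all genes without an entry in any list was not counted, so such counts are descriptions alone.

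The 67 pooled entries in reach of members had a median rank of 18334 and a median signal of 29.7, while the median signal of the whole list was 34.1. The deposited q-value was 0.0186 and 0.0192 for the 2 reproducible peaks and 0.0610 for the next strongest entry, at Cpr62Ba. It was 0.357 at TwdlT and 0.725 for the entry of Ccp84Af, and entries with such values are not shown to be sites. A replicate entry with its summit within 200 bp was found in both replicates for 22 of them (32.8%), and 47.7% of all pooled entries had such a match. Replicate 1 alone matched 14, replicate 2 alone matched 28 and neither matched 3. Of all pooled entries, 98.1% were matched in both replicates up to rank 3401 and 8.86% past rank 20000. At the share of all entries in their own rank band 24.9 of the 67 would have been matched in both. Per 100 kb in reach, there were 17.1 pooled entries and 0.509 reproducible summits at members, beside 25.3 and 3.06 at all protein-coding genes.

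**Figure D3:**
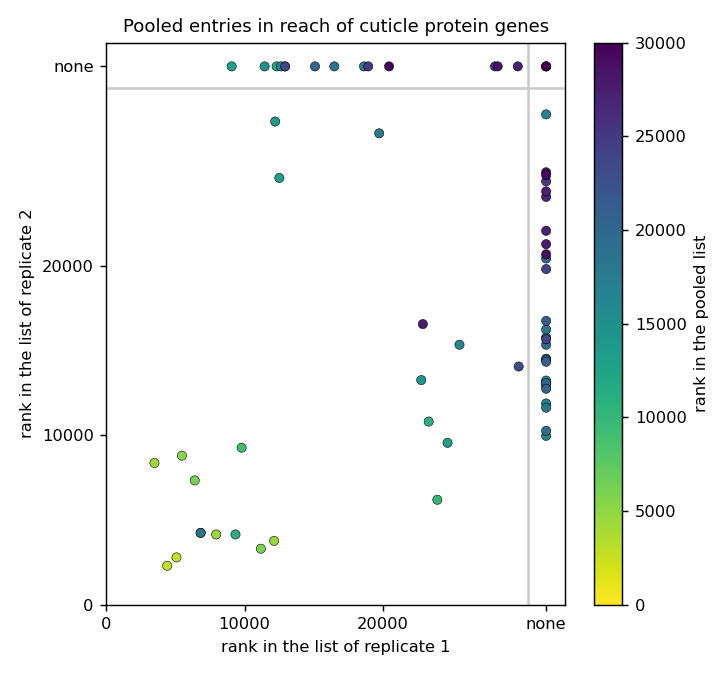
Each of the 67 pooled entries in reach of a cuticle protein gene, by the rank of the matching entry in the list of replicate 1 (horizontal axis) and replicate 2 (vertical axis), coloured by pooled rank. The 22 entries matched in both fill the inner field, the 14 and 28 matched in a single replicate lie on the margins labelled none, and the lightest points, with the best pooled ranks, gather at the lower left.

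Some of these entries lay in genes outside the families or nearest to the start of such a gene. The summit lay in a member gene for 21 of the 67 entries, and in another gene and no member for 12. The nearest protein-coding TSS was that of a gene outside the families for 20 entries. Within 500 bp of a member's start there were 18 entries, of which 14 lay upstream. For this count the start was the outer end of the gene, and starts of its shorter transcripts were left out. By annotation 34 were intergenic, 20 intronic, 9 in a non-coding part of an exon and 4 in a coding exon.

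**Figure D4:**
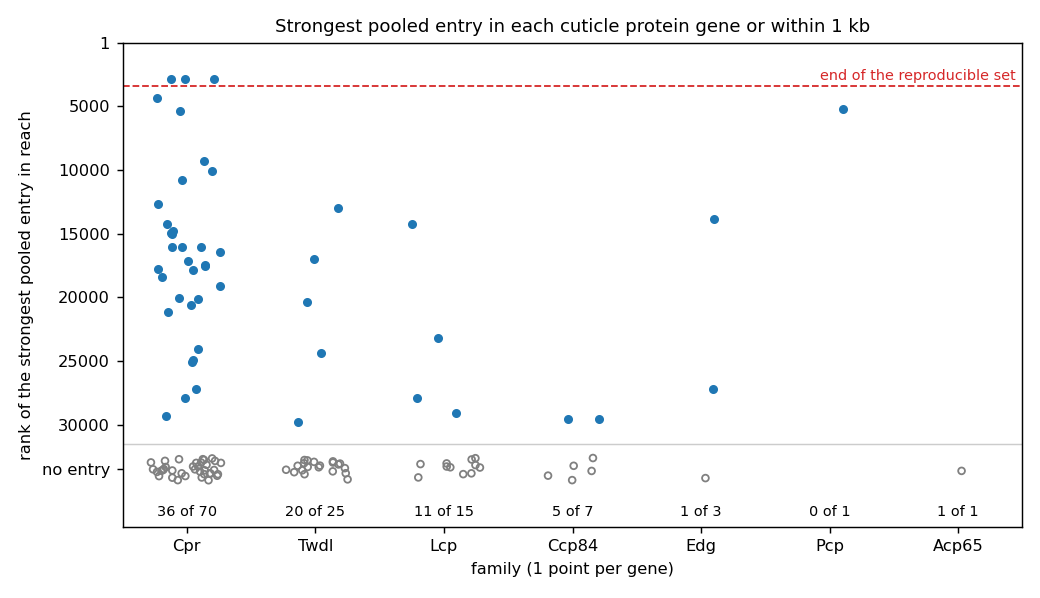
Rank of the strongest pooled entry in reach of each cuticle protein gene (vertical axis, rank 1 at the top), with 1 point per gene by family and open circles for genes with no pooled entry, counted below. The dashed line marks the end of the reproducible set, above which only 3 Cpr genes lie.

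The Cpr family, which holds the largest number of chitin-binding cuticle proteins, had pooled entries in reach of 34 of 70 genes, close to the 34.8 at the share of their span class. Both replicates had entries in reach of 20 of the 70, and 24 had none in any list. After Cpr51A and the Cpr72E genes, the strongest entry was in an intron of Cpr62Ba at chr3L:1829539-1829948, with a signal of 78.0 and ranks of 4318 in the pooled list, 3480 in replicate 1 and 8375 in replicate 2. Cpr62Ba, a long member of 7655 bp, had further pooled entries at ranks 9866, 15904, 19399 and 24013. The last lay 65 bp inside its start and was in reach of its neighbour Cpr62Bb too.

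Cpr73D, the longest member, had pooled entries at ranks 5381, 5886 and 5978, all near the gene's start, where it overlaps Ogdh, which encodes a subunit of the oxoglutarate dehydrogenase complex. The entry of rank 5381 had a signal of 68.2 and lay 3 bp from a TSS of Ogdh and 247 bp inside Cpr73D. It ranked 5467 in replicate 1 and 8808 in replicate 2. From position alone this entry cannot be given to either gene. Similarly, the entry of rank 10041 that counted for Cpr66Cb lay 17 bp from the TSS of Pex2, which encodes a peroxisome assembly factor, and 2362 bp from the start of Cpr66Cb. The entry of rank 12696 at Cpr65Ec lay 121 bp from a TSS of form3, a formin gene.

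The remaining Cpr genes among the 15 next strongest had entries in intergenic sequence or in exons, some of them exons of other genes. Cpr35B had an entry of rank 9308, beyond its 3′ end and 1620 bp from its start, which ranked 9782 and 9281 in replicates 1 and 2. The entry of Cpr47Ed, at rank 10771, lay 851 bp upstream of the start and ranked 23308 in replicate 1 and 10822 in replicate 2. Entries of Cpr49Ah, Cpr49Aa, Cpr67Fb and Cpr30B had ranks of 14775, 14974, 14987 and 16009 and were each matched in a single replicate. Those of Cpr67Fb and Cpr30B lay in a non-coding part of an exon of asRNA:CR45171 and of CG17855. Cpr56F had no entry in any list.

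In the Tweedle family, pooled entries were fewer than at the share of the span class. A pooled entry was in reach of 5 of 25 Twdl genes, where 11.8 would have had one at the share of their span class, and 17 of the 25 had none in any list. Of the 25, 12 stand in the TwdlM to TwdlD cluster, which had 0 beside 5.24 at the share of the span class. Sequence was partly repeated for 7 of these 12, as given below. All 5 genes with an entry stood outside that cluster. TwdlT had the strongest, at rank 12947 with a signal of 37.8, 277 bp upstream of its start and inside an intron of RYa-R, a neuropeptide receptor gene in which TwdlT is nested. It ranked 12513 in replicate 1 and 25211 in replicate 2. TwdlX, TwdlZ and Twdlalpha, which with TwdlY are nested in goe, had entries at ranks 16968, 29810 and 24346, and TwdlE had entries at 20328 and 27136.

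The Lcp genes encode larval cuticle proteins. A pooled entry was in reach of 4 of 15 Lcp genes, beside 5.70 at the share of their span class. The strongest, at rank 14208 with a signal of 35.5, lay 846 bp upstream of Lcp65Ae and was also in reach of Cpr65Av, and it ranked 22771 in replicate 1 and 13272 in replicate 2. Lcp2 had an entry of rank 27854, Lcp3 of rank 23206 and Lcp4 of rank 29053, while Lcp1 had none in any list. Of the 7 Ccp84 genes, Ccp84Af and Ccp84Ag shared an entry of rank 29510 that was matched in replicate 1 alone. The other 5 had none in any list. At the share of their span class 2.86 of the 7 would have had a pooled entry.

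The 3 Edg genes, isolated as ecdysone-dependent genes, and the genes of the pupal and adult cuticle proteins Pcp and Acp65Aa were named whatever their entries. Edg78E had a pooled entry of rank 13816 with a signal of 36.1 and a q-value of 0.382, 239 bp upstream of its start. It ranked 12208 in replicate 1 and 28543 in replicate 2. Edg91 had one of rank 27174 in an intron of CG14329, 1260 bp from its start, with a matched summit in replicate 1 alone. Edg84A had no entry of any list in reach, and neither had Acp65Aa. The nearest pooled summit to the start of Acp65Aa, of rank 10278, lay 1090 bp away, just outside the window.

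Pcp is nested in an intron of Gart, which encodes an enzyme of purine synthesis. The entry counted for it had rank 5227 and a signal of 69.4, and ranked 6821 in replicate 1 and 4247 in replicate 2. Its summit lay outside Pcp in a Gart intron, and the nearest TSS was that of Gart. A second pooled entry at rank 18464 lay close by and was matched to the same replicate entries.

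Cuticle protein genes stand in tandem clusters. With gaps of at most 20000 bp between neighbours, 92 members fell into 17 clusters of at least 2 genes and 30 stood alone. Of the 17 clusters, 1 held a reproducible summit, that of Cpr72Ea to Cpr72Ec, and 2 held no pooled entry. In the 5 clusters of 5 or more genes, a pooled entry was in reach of 12 of 53 members, beside 22.3 at the share of all genes in their span class. Both replicates had entries in reach of 7, beside 17.6. Elsewhere a pooled entry was in reach of 36 of 69 members, beside 34.8, and both replicates had entries in reach of 20, beside 29.5. At least 95% of the 31-base words were unique for 33 of the 53 members in the large clusters and for 67 of the 69 others. Among these, 12 of the 33 and 35 of the 67 had a pooled entry. None of the 20 large-cluster members below 95% had one, and these 20 are included in the 12 of 53. The share of all genes was not worked out for the members with unique sequence alone. No test of this contrast was made, because cluster neighbours share entries.

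The largest cluster, Lcp65Ag3 to Cpr65Az, holds 18 members in 31204 bp on 3L and includes Acp65Aa and most of the Lcp genes. It had 4 pooled entries, the best at rank 10278. Of its members Lcp65Ae and Cpr65Av had a pooled entry in reach, beside 6.69 at the share of their span class. No entry of any list was in reach of 14 of the 18. Next in size was TwdlM to TwdlD, with 12 Twdl genes in 21937 bp on 3R. At the share of their span class 5.24 of these genes would have had a pooled entry. No entry of the pooled list or of either replicate fell in the cluster. It lay in a stretch of 91887 bp between neighbouring pooled summits, which ranked 61 by length among 29994 such gaps, whose median was 1522 bp. That stretch held 13 protein-coding genes, 12 of them these members. Of the 31-base words, 97.9% occur once in the genome over the whole stretch and 93.0% over the cluster itself, where 7 of the 12 genes were below 95%. The other 5, with at least 95%, had no entry either. Outside the cluster it held 3 entries of replicate 1 and 4 of replicate 2.

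Edg84A to Ccp84Aa, 8 genes on 3R, held the single pooled entry of rank 29510. A gap of 53168 bp that ranked 175 covered 6 of the 8 genes and ran past the cluster. That gap held 7 protein-coding genes. The genes of Cpr76Ba to Cpr76Bd, 4 genes on 3L, had no entry in any list and lay in a gap of 59725 bp that ranked 145. The cluster itself covers 20738 bp of that gap, which held 12 protein-coding genes, 4 of them these members. A pair of clusters on 2R was interrupted by other genes and had more entries. Cpr49Aa to Cpr49Ah, with 8 members and 7 other protein-coding genes, held 10 pooled entries with the best at rank 7710, which was in reach of no member. Cpr47Ea to Cpr47Eg, with 7 members and 3 other genes, held 6 pooled entries with the best at rank 10771, that of Cpr47Ed.

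**Figure D5:**
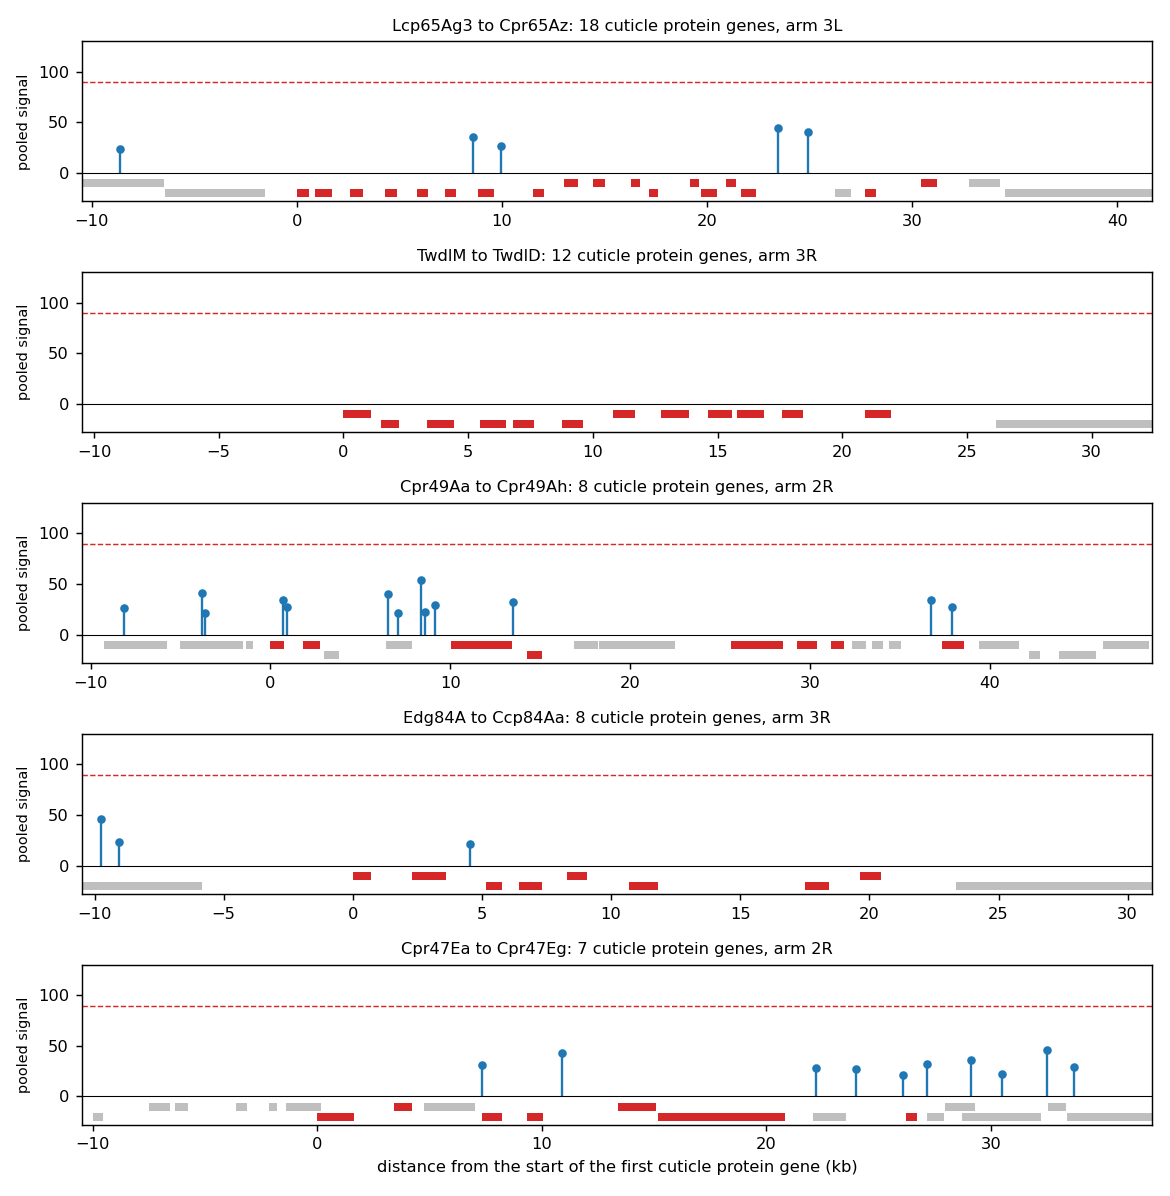
Pooled entries (blue stems, height in the authors' signal) along the 5 clusters of 5 or more cuticle protein genes, with member genes as red blocks, other protein-coding genes as grey blocks (upper row forward strand, lower row reverse strand) and distance from the start of the first member in kb. No stem reaches the dashed line at 89.8, the lowest signal of the reproducible set, and the TwdlM to TwdlD panel holds no stem.

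By arm, the share of members with a pooled entry was lowest on 3R. On this arm, which holds TwdlM to TwdlD and Edg84A to Ccp84Aa, a pooled entry was in reach of 6 of 33 members (18.2%), while the share of all genes on that arm was 62.4%. The count was 18 of 47 (38.3%) on 3L, beside 65.0% of all genes, and 13 of 27 (48.1%) on 2R, beside 58.9%. On X and 2L, with few members, their share was above that of all genes. It was 5 of 8 (62.5%) on X, beside 55.5%, and 6 of 7 (85.7%) on 2L, beside 59.8%. These shares by arm were not matched for span.

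Repeated sequence was examined because reads cannot be placed in copies that do not differ. In the gene and 1000 bp around it, at least 95% of the 31-base words occurred once in the genome for 100 of the 122 members and for 90.1% of all genes. The lowest were Lcp65Ab1 with 21.5%, Lcp65Ab2 with 22.3%, Cpr65Ax2 with 29.8% and Cpr65Ax1 with 30.5%, all in the largest cluster, so the lack of an entry at these genes cannot be read. In that cluster 10 of 18 members were below 95%, and 84.2% of the words over the whole cluster occur once. How the authors placed reads from repeats is not given in the sources used here. Among the 100 members above that limit, 3 had a reproducible summit, 47 a pooled entry and 26 an entry in both replicates. At the shares of all genes of the same span above that limit these would have been 13.3%, 50.2% and 41.9% of the 100. This limit was chosen after the values had been seen.

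The promoters of the members, from 250 bp before to 50 bp after the start, were compared with all promoters. AGATAAG or TGATAAG on either strand was in 6 (4.92%) of the member promoters and in 10.8% of all promoters. GAGAG was in 30.3% and in 29.8%. AAGGTCA was in 1 promoter, that of Edg84A, and in 2.11% of all promoters. The median GC content was 44.2% for the members and 37.9% for all.

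The core promoter word TATAAA, on the strand of the gene in the 60 bp upstream of the start, was the most frequent in the members among the words searched. It was found for 83 of 122 members (68.0%) and for 11.8% of all genes, and it was searched after other values had been seen. By family it was found in 44 of 70 Cpr, 16 of 25 Twdl, 12 of 15 Lcp, 6 of 7 Ccp84 and 3 of 3 Edg genes, and in Acp65Aa and Pcp. The promoters below are shown because they belong to genes without a pooled entry in reach, from 4 families, and are written 5′ to 3′ on the strand of the gene up to the base before the start, with TATAAA in capitals. The genome is RefSeq's of the same assembly as dm6. Acp65Aa covers chr3L:6152746-6152805 on the reverse strand. On the forward strand, Lcp65Ac covers chr3L:6144759-6144818, TwdlD covers chr3R:26639965-26640024 and Ccp84Ad, which lacks the exact word, covers chr3R:6692672-6692731.
Acp65Aa: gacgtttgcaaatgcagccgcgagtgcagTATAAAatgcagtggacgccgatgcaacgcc
Lcp65Ac: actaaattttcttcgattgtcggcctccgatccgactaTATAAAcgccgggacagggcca
TwdlD: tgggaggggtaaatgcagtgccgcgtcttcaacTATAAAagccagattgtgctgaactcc
Ccp84Ad: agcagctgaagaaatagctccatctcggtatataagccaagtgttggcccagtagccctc
For Edg84A the 120 bp upstream of the start, chr3R:6684325-6684444 on the forward strand, hold both TATAAA and AAGGTCA. The latter stands as its reverse complement 100 bp upstream of the start, at chr3R:6684345-6684351, and both are in capitals.
Edg84A: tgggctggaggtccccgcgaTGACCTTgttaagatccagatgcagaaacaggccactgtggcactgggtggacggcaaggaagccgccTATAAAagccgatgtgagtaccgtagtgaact

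The share of genes with a summit was also set out by TATAAA for genes outside the families. Of the 1568 other genes with the word, 9.12% had a reproducible summit and 46.5% a pooled entry in reach, while of the 12278 without it 21.4% and 62.8% did. At the shares of other genes in the same span class and with the same state of TATAAA, 11.5 members (9.42%) would have had a reproducible summit, 53.5 a pooled entry and 42.0 an entry in both replicates. The counts for the members were 3, 48 and 27. All 3 members with a reproducible summit had TATAAA.

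Genes outside the families that make, shape or regulate cuticle were counted by list. Of 17 genes of chitin synthesis and assembly 6 had one, beside 5.12 at the share of all genes of their span class. They were dy, dyl and pio, which encode zona pellucida domain proteins of the apical cell surface, mmy, which makes the precursor of chitin, and knk and rtv, which act in the organisation of chitin. Their best ranks ran from 377 for dy to 2880 for knk. Of 16 genes of chitin turnover 3 had one, the chitinase genes Cht11, Cht7 and Cht2, beside 3.28. Of 20 genes of tanning and pigmentation 0 had one, beside 4.62, and 14 had a pooled entry.

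Regulators of cuticle genes and molting stood at the other end, with a reproducible summit in reach of 16 of 19, beside 6.39 at the share of their span class. These genes are long, with a median span of 39895 bp, and the class of 5000 bp and over matches that span only loosely. The list was chosen with earlier results of these data known and includes Eip93F itself. The count was thus partly set in advance. The strongest were at the nuclear receptor genes Hr4, Eip78C and Eip75B, with signals of 767, 745 and 734, followed by Eip74EF, the epidermal factor grh and br, which specifies pupal development. The peak of Hr4, a gene of 66017 bp, ranked 24 in the pooled list, whereas the best entry at a cuticle protein gene ranked 2816. These best ranks were not matched for span.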

How the data were processed

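Chromatin immunoprecipitation of Eip93F-GFP was deposited as peak lists for 2 biological replicates of 1 group. The authors called each replicate and both together against a control alignment and thresholded the result by IDR, per the notes deposited with the lists. The deposited signal is the caller's own value per peak, comparable within a list. Columns of the deposited files with −log10 q and a summit offset were read too. The aligner and caller were not given in the sources used here. Counts did not come with the lists, so no interval or floor is given. The lists on dm3 were not used here.

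Genes came from Ensembl release 115 and sequence from the RefSeq genome of the same assembly. All 3401 reproducible peaks matched the head of the pooled list, by position and summit. Entries of different lists were matched when their summits lay within 200 bp. Clusters joined members with gaps of at most 20000 bp. The share of all genes in a span class, summed over the members, gave the number at that share. No test was run over the members, and counts are descriptions. The counting was tested on simulated data. Python 3.11.15, numpy 2.4.6, pandas 2.3.3 and matplotlib 3.10.9 were used.

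Named genes were all members with a reproducible summit, the 15 others with the strongest pooled entry, Edg78E, Edg84A, Edg91, Pcp, Acp65Aa, Lcp1, Lcp2, Cpr56F and TwdlT, up to 6 genes with a summit per related list, and neighbours holding a named entry. Other members, named to complete families and clusters or to show a promoter, were chosen after their values were seen. The members and lists were chosen with earlier results of these data known. Alternatives covered the window, the link of peak to gene, the rank, each replicate alone, unique sequence and the cluster gap.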

Additional observations from a re-analysis of the deposited data

How the results depend on the processing

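The number of cuticle protein genes with a reproducible summit, 3 of 122 within 1000 bp, was 1 for the gene body alone, 11 within 5000 bp and 0 for the 1700 summits with the highest signal. The leading entries of a single replicate gave from 0 to 4. The share of all genes in the members' span class was higher in each case, for example 3.04% for the gene body and 27.3% within 5000 bp, where the members had 0.820% and 9.02%. The number with a pooled entry, 48, was 10 for the gene body, 29 within 500 bp and 85 within 5000 bp, and it was 29 for ranks up to 20000 and 7 for ranks up to 10000. As shares these were 8.20%, 23.8%, 69.7%, 23.8% and 5.74%, beside 18.5%, 39.7%, 74.3%, 37.5% and 25.4% at the share of the span class. By the nearest start site the shares were close, 43.4% beside 45.9%. The number with an entry in both replicates, 27, was 6 for the gene body, 15 within 500 bp and 70 within 5000 bp, and it was 11 and 7 for ranks up to 20000 and 10000 in each list. These shares were 4.92%, 12.3%, 57.4%, 9.02% and 5.74%, beside 12.0%, 31.04%, 69.4%, 30.0% and 20.2%. Overlap of the peak interval, the nearest start site and members with mostly unique sequence kept these 3 counts within 1.5 times. There were 17 clusters with gaps up to 20000 or 50000 bp and 18 with gaps up to 10000 bp. No paired analysis was possible because the replicates form a single group.

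The wider window counts more summits of neighbouring genes, and the narrower window covers less sequence. With the depth unknown, and with each list ending at 30000 entries, a gene without an entry was not shown to be free of Eip93F. With whole animals, binding in few cells could not be told apart from weak binding.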
